A study of Mus musculus with 12 samples.

Results

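The aryl hydrocarbon receptor (AHR) and the genes around it were followed in primary mouse hepatocytes treated with benzbromarone (BBR), oleic acid (OA) or both. The set was 7 genes of the 22471 features in the deposited tables, taken by symbol: the receptor gene Ahr, its partner Arnt, the repressor gene Ahrr, the cytochrome P450 genes Cyp1a1, Cyp1a2 and Cyp1b1, and Tiparp. All 7 were found in the 12 libraries, and 5 of them had enough counts to be tested. Cyp1b1 and Ahrr had too few reads for a test in any comparison.

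The libraries formed 4 groups of 3. Control cells (label Con) received neither agent, OA cells (ConOA) received OA, a fatty acid that fills hepatocytes with fat droplets, BBR cells received the uric acid-lowering drug benzbromarone, and BBR+OA cells (BBROA) received both. Per the study's methods the hepatocytes were isolated with collagenase from livers of young male C57BL/6J mice and OA was incubated with albumin before it was added. The groups thus share a cultured, non-transgenic cell and differ in what was added to the medium. Whether cells without OA received albumin alone is not stated. Changes called changes with OA below therefore cannot be told apart from changes with its albumin. The labels name the tissue only as liver, give no dose or time, and call the 3 libraries of a group biological replicates without saying whether they came from separate mice or cultures. The p-values below therefore measure the spread between labelled libraries.

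AHR is a transcription factor that waits in the cytoplasm with chaperones until a ligand binds, then enters the nucleus and pairs with ARNT. The pair binds DNA that holds the core letters GCGTG and switches on a battery of genes, among which the CYP1 enzymes of xenobiotic oxidation are the textbook readout in liver. AHRR, which competes for ARNT, and TIPARP, an ADP-ribosyltransferase that acts on AHR, are targets that feed back on the receptor.

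Library totals lay between 15485508 and 23668379 counts, so that a single read stood for 0.0423 to 0.0646 counts scaled by library size (CPM) and the 3 reads that a count of 0 allows stood for 0.127 to 0.194 CPM, for counting error only. The 6 hepatocyte markers Alb, Apoa1, Ttr, Serpina1a, Cyp2e1 and Hnf4a were present in every library and summed to between 30745 and 38979 CPM. Markers of other liver cells were also present. The summed level of 7 Kupffer cell markers was 84.2 to 104.5 CPM in control, 86.0 to 105.6 CPM in OA, 122.8 to 165.7 CPM in BBR and 86.6 to 102.5 CPM in BBR+OA libraries. The sum of 5 cholangiocyte markers was 591.6 to 719.9 CPM in control, 242.7 to 272.5 CPM in OA, 390.2 to 422.4 CPM in BBR and 198.8 to 240.4 CPM in BBR+OA, with Krt7 at no more than 3 counts in every library. Each of these sums was mostly 1 gene, and is no measure of cell content. Over all libraries Cd68 read 59.5 to 149 CPM, and every other Kupffer cell marker at most 9.72 CPM. Spp1 read 143 to 678 CPM, Sox9 29.1 to 58.8 CPM and Krt19 6.50 to 14.5 CPM. In bulk RNA fewer cells of a type and less RNA per cell cannot be told apart, and the part of these markers in the results below was not tested. The share of mitochondrial counts was 5.50% to 6.07% in control, 5.63% to 6.28% in OA, 6.34% to 6.89% in BBR and 6.09% to 6.59% in BBR+OA libraries. BBR and BBR+OA both stood above control without overlap, and BBR also stood above OA. The part of this share in the changes between these groups was not tested. The 6 endothelial markers summed to 47.5 to 62.8 CPM and the 7 stellate cell or fibroblast markers to 18.5 to 24.7 CPM over all libraries. Of the latter sum, Reln alone read 12.8 to 18.8 CPM.

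All 7 genes are annotated as protein-coding in GENCODE M21 on GRCm38, the assembly also called mm10 that the submitters name. Cyp1a1 (ENSMUSG00000032315, chr9:57687928-57703824, plus strand) and Cyp1a2 (ENSMUSG00000032310, chr9:57676937-57683703, minus strand) lie head to head, with 4224 bases and no annotated gene between the 2 annotated spans. The RefSeq starts used for the promoters lie 13958 bases apart. Ahr (ENSMUSG00000019256) spans chr12:35497974-35535038 on the minus strand, and Arnt (ENSMUSG00000015522) spans chr3:95434388-95497240 on the plus strand. Tiparp (ENSMUSG00000034640) spans chr3:65528410-65555518 on the plus strand. Ahrr (ENSMUSG00000021575) lies at chr13:74211118-74292331 and Cyp1b1 (ENSMUSG00000024087) at chr17:79701537-79715061, both on the minus strand. Annotated genes overlap 3 of the members: 4931440P22Rik opposite Tiparp, Gm48236 opposite Ahr, and the pseudogene Gm42672 on the strand of Arnt. Each pair shares only a part of the member's span, and none of the overlapping genes is in the deposited tables. Whether the counting used strand is not stated, so reads from the shared stretches cannot be told apart.

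The 250 bases before the RefSeq start (GRCm38.p6) were searched for GCGTG on both strands in the 6 members with an entry, all except Ahr. Of these, 4 promoters are printed 5′ to 3′ on the strand of the gene, with GCGTG, or CACGC where the match is on the other strand, in capitals. Cyp1a1 and Cyp1a2 are shown as neighbours with and without a match, Ahrr for its 3 matches, and Tiparp as the member called in most comparisons. The windows are chr9:57697363-57697612 (plus) for Cyp1a1, chr9:57683656-57683905 (minus) for Cyp1a2, chr13:74292332-74292581 (minus) for Ahrr and chr3:65528197-65528446 (plus) for Tiparp.
Cyp1a1: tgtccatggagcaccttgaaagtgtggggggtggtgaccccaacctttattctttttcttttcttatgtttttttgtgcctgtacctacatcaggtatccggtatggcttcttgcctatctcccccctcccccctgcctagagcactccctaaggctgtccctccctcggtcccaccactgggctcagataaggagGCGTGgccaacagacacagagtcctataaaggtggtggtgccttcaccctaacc
Cyp1a2: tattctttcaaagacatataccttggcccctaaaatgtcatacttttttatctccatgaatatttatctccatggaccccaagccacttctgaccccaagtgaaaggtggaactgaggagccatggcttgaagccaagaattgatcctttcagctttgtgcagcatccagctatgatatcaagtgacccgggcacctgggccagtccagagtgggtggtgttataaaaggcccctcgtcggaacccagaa
Ahrr: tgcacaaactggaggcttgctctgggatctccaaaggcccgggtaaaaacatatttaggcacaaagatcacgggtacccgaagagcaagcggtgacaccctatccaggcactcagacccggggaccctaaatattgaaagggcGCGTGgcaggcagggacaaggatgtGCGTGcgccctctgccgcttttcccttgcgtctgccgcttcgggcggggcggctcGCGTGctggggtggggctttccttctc
Tiparp: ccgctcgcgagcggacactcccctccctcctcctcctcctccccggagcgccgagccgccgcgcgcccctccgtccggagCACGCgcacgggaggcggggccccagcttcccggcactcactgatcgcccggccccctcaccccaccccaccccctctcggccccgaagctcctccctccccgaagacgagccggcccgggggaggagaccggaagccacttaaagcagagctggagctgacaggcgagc

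The Cyp1a1 window held 1 match, at 54 to 50 bases before the start, and a TATAAA whose first base is at 30. The Cyp1a2 window held no GCGTG and a TATAAA whose first base is at 29, which says only that these letters are absent from these 250 bases. The Ahrr window held matches at 107 to 103, 82 to 78 and 27 to 23 bases before the start. Tiparp had 1 match on the opposite strand at 170 to 166 bases in a window of 75.2% G and C, Arnt had 1 at 29 to 25 bases, and Cyp1b1 had 1 on the opposite strand at 76 to 72 bases. Of 32851 RefSeq promoters of the same length, 28.2% held at least 1 match, 8.63% at least 2 and 2.77% at least 3, and 7.59% held TATAAA. A match is a description of the letters and not a site of binding.

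Per transcript length, the enzyme Cyp1a2 was the most abundant member and the other CYP1 enzymes were close to absent. Levels between genes were compared in FPKM, the length-scaled value that the authors deposited. Cyp1a2 had a median of 25.6 FPKM over the 12 libraries (20.7 to 29.4), Arnt 17.2 (14.3 to 20.4), Ahr 10.8 (9.81 to 13.6), Tiparp 9.84 (6.20 to 16.2) and Cyp1a1 0.310 (0.140 to 0.670). Cyp1a2 stood above Arnt, and Arnt above Ahr, in 12 of 12 libraries. Ahr stood above Tiparp in 3 of 3 control and 3 of 3 BBR libraries, and Tiparp above Ahr in 3 of 3 OA libraries, although the ranges of the 2 genes overlapped there. The order was mixed in BBR+OA, with Tiparp higher in 2 of 3 libraries. Ahrr was listed at 0 to 0.0400 FPKM and Cyp1b1 at 0 to 0.0100 FPKM.

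**Figure D1:**
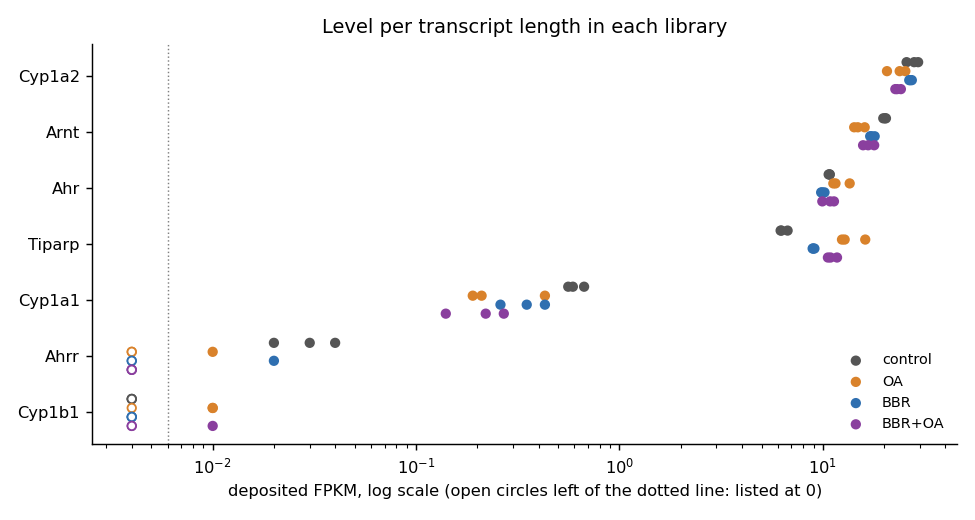
Deposited FPKM of the 7 genes (horizontal axis, log scale) in each of the 12 libraries, coloured by group, with open circles for libraries where a gene is listed at 0. Cyp1a2, Arnt, Ahr and Tiparp lie between 6.20 and 29.4 FPKM, Cyp1a1 between 0.140 and 0.670 FPKM, and Ahrr and Cyp1b1 at or below 0.0400 FPKM.

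Within each gene, changes were tested on counts with the edgeR quasi-likelihood test, with Benjamini-Hochberg adjustment over all features tested, and a gene was called at an adjusted p under 0.05. With BBR against control, 3 of the 5 tested members were called, Tiparp higher and Arnt and Cyp1a1 lower, where 27.7% of 12555 features were called (13.2% higher and 14.5% lower). With OA against control all 5 were called, Tiparp and Ahr higher and Arnt, Cyp1a1 and Cyp1a2 lower, where 42.8% of 12418 features were called (21.3% higher and 21.5% lower). These comparisons share the control libraries, and each group enters 2 of the 4 pairwise comparisons. With BBR+OA against OA none of the 5 was called, where 4.59% of 12278 features were called (1.95% higher and 2.63% lower). At an unadjusted p under 0.05 that comparison had 2 members, Ahr and Tiparp, and DESeq2 called 0. An edgeR fit with the replicate number as a block called both of these members.

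With BBR+OA against BBR, 2 members were called, Tiparp higher and Cyp1a2 lower, where 38.9% of 12416 features were called (20.1% higher and 18.8% lower). The interaction, which asks whether BBR acted differently in the presence of OA, was called in 2 members, positive in Arnt and negative in Tiparp, where 12.2% of 12742 features were called (6.87% positive and 5.31% negative). Over all features the median absolute log2 fold change of those called was 0.33 for BBR against control and 0.37 for OA against control. By absolute log2 fold change in OA against control, Cyp1a1 ranked 482nd and Tiparp 587th of 12418 features. With upper quartile scaling in place of TMM, the 5293 features called in OA against control split into 2077 higher and 3216 lower, against 2643 and 2668 with TMM. For BBR+OA against BBR the same change gave 1976 higher and 2870 lower, against 2496 and 2330.

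**Figure D2:**
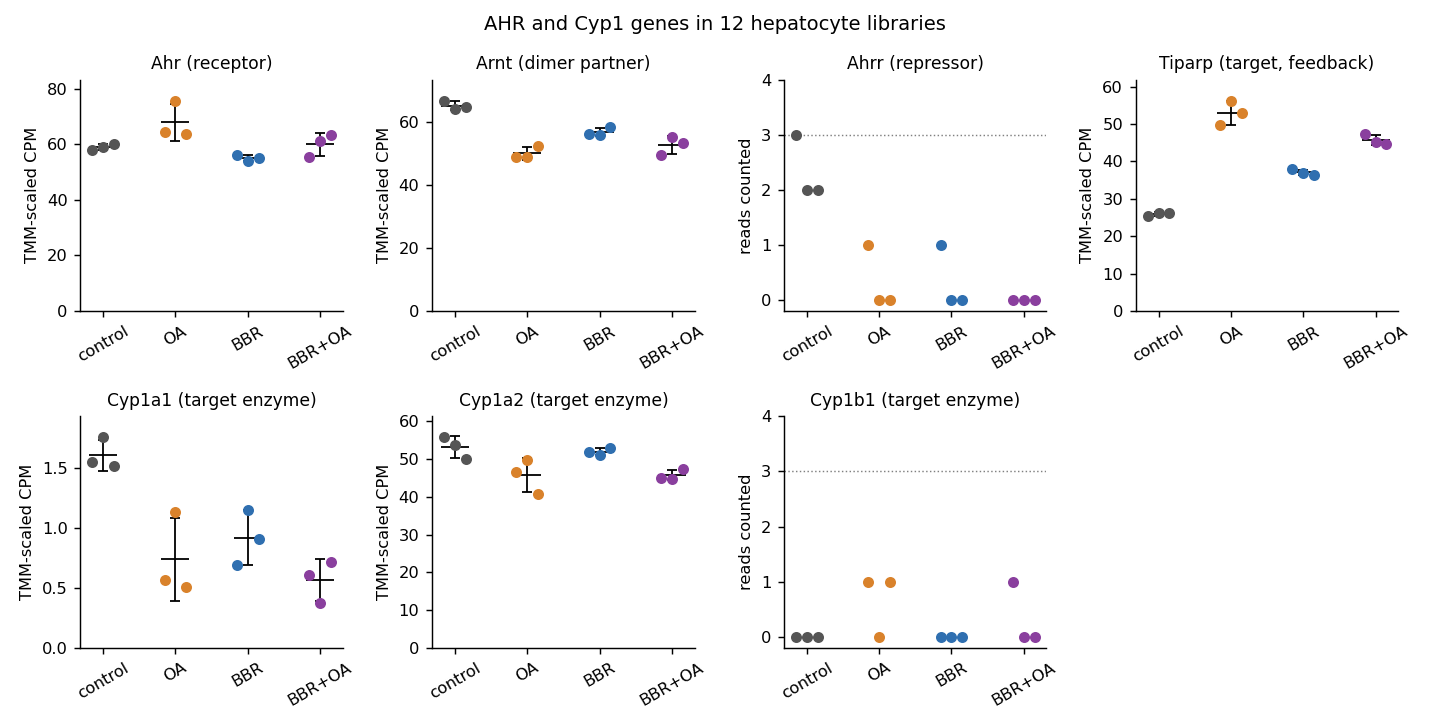
Values of the 7 genes in each library by group: TMM-scaled CPM with the mean and SD of 3 libraries, or reads counted for Ahrr and Cyp1b1 with a dotted line at 3 reads. Tiparp lies at 25.4 to 26.2 CPM in control, 36.4 to 37.9 CPM in BBR, 44.7 to 47.3 CPM in BBR+OA and 49.8 to 56.3 CPM in OA libraries.

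Ahr, the ligand-binding receptor itself, was higher with OA than in control, and was not called in the other comparisons unless the fit was changed, as given below. Its control libraries read 57.9, 59.0 and 59.9 CPM and its OA libraries 64.5, 75.6 and 63.6 CPM. The BBR libraries read 56.2, 54.0 and 54.9 CPM and the BBR+OA libraries 55.3, 61.3 and 63.3 CPM. All 3 OA libraries stood above all control libraries, and OA replicate 2 was the highest of the 12. Over all features tested, the 2 groups did not overlap in 52.2% with OA against control and in 41.5% with BBR against control. The share was 49.6% with BBR+OA against BBR and 23.9% with BBR+OA against OA. The separations of groups given for the members stand against these shares. The mean was 59.0 ± 1.01 CPM in control and 67.9 ± 6.69 CPM in OA (SD, n = 3 each), a log2 fold change of 0.21 (SE 0.064, edgeR adjusted p = 0.0173).

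The rise of Ahr with OA depended on single libraries and on the scaling. Without OA replicate 2 its log2 fold change was 0.13 (edgeR adjusted p = 0.106), without control replicate 1 the adjusted p was 0.0539 and without control replicate 2 it was 0.0560. With upper quartile scaling the adjusted p was 0.0558, and limma on log2 FPKM gave 0.139 and 0.145 with pseudocounts of 0.1 and 1. Over 14 alternatives the log2 fold change stayed positive, from 0.13 to 0.25.

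With BBR alone Ahr was 55.0 ± 1.09 CPM (SD, n = 3), and the BBR libraries lay below the control libraries by a margin that was not called (log2 fold change -0.090, 95% interval -0.19 to 0.013, edgeR adjusted p = 0.189). BBR+OA libraries averaged 59.9 ± 4.20 CPM. They lay below the OA libraries with a log2 fold change of -0.18 (95% interval -0.34 to -0.030, edgeR adjusted p = 0.176) and above the BBR libraries in mean, with overlap, with a log2 fold change of 0.12 (95% interval -0.0034 to 0.24, edgeR adjusted p = 0.117). That last comparison passed the threshold without BBR+OA replicate 1, the lowest of its group, at a log2 fold change of 0.17 (edgeR adjusted p = 0.0228). BBR+OA against OA passed it with the replicate number as a block in the fit (log2 fold change -0.18, edgeR adjusted p = 0.0428). The interaction for Ahr was -0.082 on the log2 scale (95% interval -0.27 to 0.11).

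Arnt, the partner that AHR needs to bind DNA and that the hypoxia-inducible factors also use, was lower with either agent alone. Control libraries read 66.9, 64.2 and 64.8 CPM and BBR libraries 56.4, 56.1 and 58.5 CPM. OA libraries read 48.9, 48.9 and 52.6 CPM and BBR+OA libraries 49.7, 55.2 and 53.4 CPM. Every library with an agent stood below every control library, and the BBR libraries stood above all OA and all BBR+OA libraries.

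Arnt fell by 12.2% with BBR, from 65.3 ± 1.42 to 57.0 ± 1.32 CPM (n = 3, ± SD, log2 change -0.19 with SE 0.049, edgeR adjusted p = 0.00911). It fell by 22.9% with OA, to 50.1 ± 2.12 CPM (n = 3, ± SD, log2 change -0.38 with SE 0.054, edgeR adjusted p = 7.11e-05). Both calls held under all 14 alternatives run for each. In the presence of OA, adding BBR left Arnt at 52.8 ± 2.79 CPM, a log2 fold change of 0.071 (95% interval -0.056 to 0.20, edgeR adjusted p = 0.569). BBR+OA against BBR gave a log2 fold change of -0.12 (95% interval -0.23 to -0.00225, edgeR adjusted p = 0.10), and it was called only with upper quartile scaling (-0.16, adjusted p = 0.0284).

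The BBR effect on Arnt differed between cells with and without OA by 0.27 on the log2 scale (SE 0.073, 95% interval 0.11 to 0.42, edgeR adjusted p = 0.0213). This call did not hold when single libraries were left out. The adjusted p was 0.0533 without control replicate 1, 0.0538 without BBR replicate 2, 0.0896 without OA replicate 2, 0.0925 and 0.0747 without replicates 2 and 3 of BBR+OA, with differences between 0.21 and 0.31 on the log2 scale over all libraries left out.

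Ahrr, the repressor that competes with AHR for ARNT, was at or under 3 reads in every library. The control libraries held 3, 2 and 2 reads, the OA libraries 1, 0 and 0, the BBR libraries 1, 0 and 0, and the BBR+OA libraries none. Of 9 reads in all, 7 were in control. Since no library passed the floor of 3 reads, no fold is given and a change was not detectable at this depth.

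Cyp1a1, the inducible P450 that serves as the standard readout of AHR activation, was low in every library and lower with BBR and with OA than in control. The control libraries held 31, 37 and 36 reads, or 1.55, 1.76 and 1.52 CPM. The OA libraries held 10, 21 and 10 reads (0.567, 1.14 and 0.511 CPM) and the BBR libraries 15, 18 and 17 reads (0.692, 1.15 and 0.913 CPM). The BBR+OA libraries held 12, 7 and 12 reads (0.608, 0.370 and 0.714 CPM). Each of the 9 treated libraries stood below all 3 control libraries, while the treated groups overlapped each other. Of all features tested, 41.5% did not overlap with BBR against control either, and 52.2% with OA against control.

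Cyp1a1 fell from 1.61 ± 0.130 CPM in control to 0.739 ± 0.347 CPM with OA (n = 3, ± SD, log2 change -1.12 with SE 0.31, edgeR adjusted p = 0.00982), a call that held under all 14 alternatives run. With BBR it fell to 0.919 ± 0.231 CPM (n = 3, ± SD, log2 change -0.83 with SE 0.27, edgeR adjusted p = 0.0333). The call with BBR was less firm. DESeq2 gave an adjusted p of 0.102 and the fit of all 12 libraries 0.0513. Leaving out 1 library gave edgeR adjusted p-values of 0.0666, 0.107 and 0.0609 for control replicates 1, 2 and 3, and 0.148 and 0.0810 for BBR replicates 1 and 3. The log2 fold change stayed negative throughout these fits, and 7 of 14 alternatives passed the threshold.

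BBR+OA cells had the lowest mean Cyp1a1, 0.564 ± 0.176 CPM (SD, n = 3), but the difference was not detectable against OA (log2 fold change -0.39, 95% interval -1.28 to 0.49, edgeR adjusted p = 0.668) or against BBR (-0.68, 95% interval -1.44 to 0.077, edgeR adjusted p = 0.146). Without OA replicate 2, which held 21 reads, the log2 fold change against OA was 0.055. The interaction had a 95% interval of -0.61 to 1.49 around 0.44. In BBR replicate 3 the deposited counts of the neighbours Cyp1a1 and Cyp1a2 were fractional, 17.01 and 985.99, and likewise 12.01 and 889.99 in BBR+OA replicate 1. Rounding returned these to whole reads.

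Cyp1a2, the constitutive CYP1 enzyme of hepatocytes, which oxidises caffeine and aromatic amines, was lower in cells that received OA. Control libraries read 55.8, 53.8 and 50.0 CPM and BBR libraries 51.9, 51.2 and 53.0 CPM. OA libraries read 46.6, 49.6 and 40.8 CPM and BBR+OA libraries 45.1, 44.8 and 47.3 CPM. The 6 libraries with OA stood below the 6 without it, though the closest of them, at 49.6 and 50.0 CPM, were near each other, and BBR and control overlapped.

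Cyp1a2 fell by 12.4% in BBR+OA against BBR, from 52.0 ± 0.890 to 45.7 ± 1.35 CPM (n = 3, ± SD, log2 change -0.19 with SE 0.050, edgeR adjusted p = 0.00731), a call that held under all 14 alternatives. In OA against control it fell from 53.2 ± 2.90 to 45.7 ± 4.50 CPM (n = 3, ± SD, log2 change -0.21 with SE 0.071, edgeR adjusted p = 0.0243). That call was lost without control replicate 1 (edgeR adjusted p = 0.0956), control replicate 2 (0.0791) or OA replicate 3 (log2 fold change -0.14, 0.0944). BBR against control gave -0.022 (95% interval -0.14 to 0.095) and BBR+OA against OA gave -0.00077 (95% interval -0.15 to 0.15) on the log2 scale, with edgeR adjusted p-values of 0.810 and 0.997. The interaction was 0.031 (95% interval -0.16 to 0.22).

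Cyp1b1, the CYP1 enzyme best known from tissues outside the liver, had 3 reads in the 12 libraries together. The OA libraries held 1, 0 and 1 reads, the BBR+OA libraries 1, 0 and 0, and the control and BBR libraries none. All libraries were under the floor of 3 reads, so neither a level nor a change could be read at this depth.

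Tiparp, an ADP-ribosyltransferase gene that AHR switches on and whose product limits AHR, was higher with either agent than in control, with the highest mean under OA alone. Control libraries read 25.4, 26.2 and 26.2 CPM and BBR libraries 37.9, 37.0 and 36.4 CPM. BBR+OA libraries read 47.3, 45.3 and 44.7 CPM and OA libraries 49.8, 56.3 and 52.9 CPM. The 4 groups did not overlap, and their order was control, BBR, BBR+OA and OA. In the 4 pairwise comparisons, 23.9% to 52.2% of all features tested did not overlap either.

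Tiparp rose from 25.9 ± 0.474 to 37.1 ± 0.727 CPM with BBR (n = 3, ± SD, log2 change 0.52 with SE 0.059, edgeR adjusted p = 6.05e-06). With OA it rose to 53.0 ± 3.22 CPM (n = 3, ± SD, log2 change 1.03 with SE 0.062, edgeR adjusted p = 1.73e-08). In BBR-treated cells OA raised it to 45.8 ± 1.35 CPM (n = 3, ± SD, log2 change 0.30 with SE 0.052, edgeR adjusted p = 0.00041). These 3 calls held under all 14 alternatives run for each, including every library left out.

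Among OA-loaded cells, the 3 libraries with BBR read lower for Tiparp than the 3 without it. The log2 fold change of BBR+OA against OA was -0.21 (SE 0.059, 95% interval -0.34 to -0.086), with an edgeR adjusted p of 0.0551 that missed the threshold. It passed in 4 of 14 alternatives. These were the edgeR fits without a filter on low counts (adjusted p = 0.0350), of all 12 libraries (0.0267) and without OA replicate 1 (0.0359). The last was the fit with the replicate number as a block (0.0197). Over the 14 the adjusted p ranged from 0.0197 to 0.210. The interaction was -0.73 on the log2 scale (SE 0.078, 95% interval -0.89 to -0.56, edgeR adjusted p = 1.77e-05), and it was called in all 19 alternatives run.

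**Figure D3:**
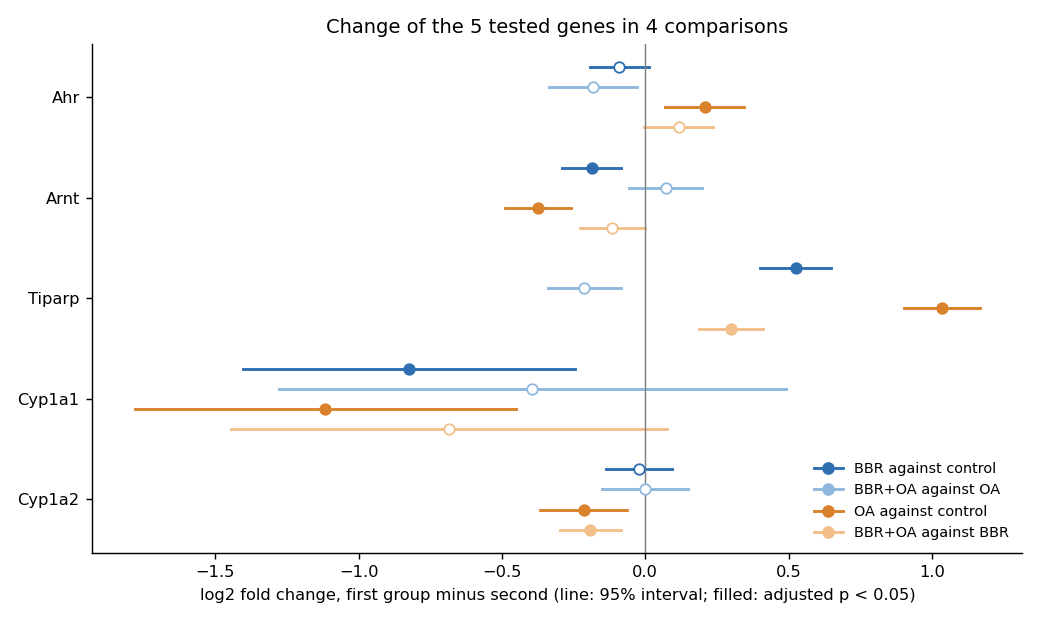
Log2 fold changes (horizontal axis) of the 5 tested genes in 4 comparisons, with 95% intervals as lines and filled circles at an edgeR adjusted p under 0.05. Tiparp lies at 0.52 and 1.03 for BBR and OA against control and at -0.21 for BBR+OA against OA, and the Cyp1a1 intervals are the widest.

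The members that AHR is known to switch on did not share a direction. Against control, Tiparp was higher with BBR and with OA while Cyp1a1 was lower with both, and Cyp1a2 was lower with OA and not called with BBR.

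Genes whose pattern over the 12 libraries was most like each member were sought by Pearson correlation of log2 CPM over 9711 genes, as a description. Libraries of a group share their treatment, so the coefficients rest largely on the 4 group levels. Closest to Tiparp were Irx3 (r = 0.983), a homeobox transcription factor gene with 2.29 CPM in control, 10.2 in OA, 4.59 in BBR and 6.88 in BBR+OA on average, and Nupl1 (r = 0.981). Closest to Arnt were Hdac11 (r = 0.980), a histone deacetylase gene that averaged 17.2 CPM in control and 7.67 CPM in OA, and Crot (r = 0.970), the peroxisomal carnitine octanoyltransferase gene. For Cyp1a2 they were Npc1 (r = 0.967), a lysosomal cholesterol transporter gene, and Rai1 (r = 0.958). For Cyp1a1, with few reads, they were Csnk1g2 (r = 0.925) and Ccdc6 (r = 0.922), and for Ahr they were Grwd1 and Szrd1 (r = 0.878 for both).

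Other genes known to answer to AHR were followed in a list of 12, of which 9 or 10 were tested. With BBR against control 1 was higher and 5 were lower of 10, with a median log2 fold change of -0.16 against -0.00085 over all features. With OA against control none was higher and 8 were lower of 9 (median -0.47 against -0.0060), and with BBR+OA against BBR none was higher and 7 were lower of 10 (median -0.34 against -0.0061), or 4 without BBR+OA replicate 2 and 4 by limma on log2(FPKM + 1). With BBR+OA against OA none of 10 was called, 2 had an unadjusted p under 0.05, and DESeq2 called 0. Over all features 27.7% were called with BBR against control, 42.8% with OA against control, 38.9% with BBR+OA against BBR and 4.59% with BBR+OA against OA, and the counts of this and the following lists stand against these shares. The direction of each gene named next was the same with RLE and upper quartile scaling.

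The rise in this list was in Cyp2s1, which had too few counts to be tested in OA against control. It entered the comparison of BBR with control through the BBR libraries, where it was higher. Cyp2s1, a P450 gene of low level here, rose with BBR from 0.299 ± 0.180 to 1.54 ± 0.741 CPM (n = 3, ± SD, log2 change 2.30 with SE 0.45, edgeR adjusted p = 0.00105). The size of this rise was uncertain, with log2 changes between 1.84 and 2.94 when 1 library was left out. By limma on log2(FPKM + 0.1) and log2(FPKM + 1) it was 1.38 and 0.44. Cyp2s1 fell in BBR+OA against BBR (log2 change -1.35 with SE 0.42, edgeR adjusted p = 0.0216). That fall was not called when replicate 3 of BBR was left out (edgeR adjusted p = 0.142) or replicate 1 or 2 of BBR+OA (0.0890 and 0.0638), nor by limma on log2(FPKM + 1) (adjusted p = 0.159). Summed Kupffer cell markers, mostly Cd68, were also higher in the BBR libraries, as given above, and their part in the rise of Cyp2s1 was not tested.

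Ugt1a6a, a glucuronosyltransferase gene, fell from 32.5 ± 1.15 CPM in control to 22.2 ± 1.09 CPM with BBR (n = 3, ± SD, log2 change -0.54 with SE 0.066, edgeR adjusted p = 1.43e-05) and by 0.67 on the log2 scale with OA. With BBR, Ugt1a6b (-0.33), Xdh (-0.51), Nqo1 (-0.38) and Nfe2l2 (-0.26) made up the other falls on the log2 scale, of which that of Nqo1 was not called without control replicate 1 (edgeR adjusted p = 0.0911) or without replicate 2 or 3 of BBR (0.0770 and 0.0913). Ugt1a6a and Ugt1a6b share exons with each other and with other genes of their locus, so the counts of both are uncertain. Both enter the counts and medians of this list as separate genes, although their falls may not be separate. Xdh, the xanthine oxidoreductase gene that makes uric acid, fell with OA from 116.7 ± 3.21 to 71.6 ± 2.70 CPM (n = 3, ± SD, log2 change -0.70 with SE 0.050, edgeR adjusted p = 8.73e-08). Ugdh, which makes the sugar donor for glucuronidation, fell with OA from 486.5 ± 11.7 to 313.1 ± 17.8 CPM (n = 3, ± SD, log2 change -0.63 with SE 0.053) and by 0.72 on the log2 scale in BBR+OA against BBR. Slc46a3, a lysosomal transporter gene, also fell in BBR+OA against BBR (log2 change -0.64 with SE 0.21, edgeR adjusted p = 0.0278), a call lost without replicate 1 or 3 of BBR (0.141 and 0.0644) or replicate 2 or 3 of BBR+OA (0.116 and 0.0521), and by DESeq2 (adjusted p = 0.0510). The interaction was called in 3 genes of the list, positive in each (Xdh 0.52, Ugt1a6a 0.45 and Nfe2l2 0.24, the last a regulator of antioxidant genes). The interaction of Ugt1a6a was not called without BBR+OA replicate 3 (edgeR adjusted p = 0.0505), and that of Nfe2l2 was not called when control replicate 1, OA replicate 2, BBR replicate 2 or 3 or any of the 3 BBR+OA replicates was left out (edgeR adjusted p between 0.0548 and 0.111).

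The 12 AHR chaperone and co-regulator genes were all tested, and no difference from the shares over all features is read from their counts. Over the alternatives, 1 to 3 were called in BBR against control and 0 to 2 in BBR+OA against OA. In OA against control and in BBR+OA against BBR 4 to 6 were called. BBR against control had 3 higher and none lower, OA against control 3 higher and 1 lower, BBR+OA against BBR 3 higher and 1 lower, and BBR+OA against OA none, where 3 had an unadjusted p under 0.05 and DESeq2 called 0. Nrip1, a nuclear receptor co-repressor gene, rose with BBR from 37.0 ± 2.68 to 49.2 ± 2.85 CPM (n = 3, ± SD, log2 change 0.42 with SE 0.065) and with OA to 55.5 ± 5.06 CPM (n = 3, ± SD, log2 change 0.59 with SE 0.073), with an interaction of -0.65. Hsp90aa1, a chaperone gene of the cytoplasmic receptor complex, rose by 0.23 on the log2 scale with OA and by 0.20 in BBR+OA against BBR. The co-chaperone gene Ptges3 rose by 0.21 and 0.17 in the same comparisons. The co-activator genes Ep300 (0.24 with BBR) and Ncoa2 (0.20 in BBR+OA against BBR) rose and Ncoa1 (-0.28 with OA) fell. Cul4b, a ubiquitin ligase scaffold gene, rose with BBR (0.18) and fell in BBR+OA against BBR (-0.26). The rise of Cul4b with BBR was not called without control replicate 2, BBR replicate 1 or BBR replicate 2 (edgeR adjusted p = 0.0501, 0.0535 and 0.0799), nor were those of Cul4b and Ep300 by limma on log2(FPKM + 1) (adjusted p = 0.0662 and 0.229). The fall of Ncoa1 with OA was not called by the same limma fit (adjusted p = 0.642).

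Partners that share ARNT, or its clock relative, were followed in a list of 10 names, 9 of them in the tables, of which Hif1a, Epas1 and Arntl were tested. Hif1a, a hypoxia-inducible factor gene, fell with BBR from 131.0 ± 4.13 to 98.4 ± 7.01 CPM (n = 3, ± SD, log2 change -0.40 with SE 0.053, edgeR adjusted p = 2.98e-05) and in BBR+OA against OA (log2 change -0.21 with SE 0.046, edgeR adjusted p = 0.0207). The second fall of Hif1a was not called when replicate 2 of OA was left out (edgeR adjusted p = 0.0958) or replicate 2 or 3 of BBR+OA (0.110 and 0.101), nor by limma on log2(FPKM + 1) (adjusted p = 0.107). In BBR+OA against BBR Hif1a rose (log2 change 0.16 with SE 0.050, edgeR adjusted p = 0.0192). This rise was not called with upper quartile scaling (edgeR adjusted p = 0.0696). It was also lost without replicate 2 or 3 of BBR (0.0847 and 0.0600) or replicate 1 of BBR+OA (0.0570). Epas1, the related factor, fell with BBR (-0.22) and with OA (-0.60), with an interaction of 0.31 that was not called without BBR+OA replicate 2 (edgeR adjusted p = 0.0619). Arntl, the clock gene also called Bmal1, rose with OA from 15.6 ± 0.625 to 27.0 ± 1.31 CPM (n = 3, ± SD, log2 change 0.80 with SE 0.073) and by 1.08 on the log2 scale in BBR+OA against BBR.

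CYP1 enzymes need heme and electrons from reductases, and 8 genes of that supply were all tested. BBR against control had 2 higher and 2 lower, OA against control 3 and 3, BBR+OA against BBR 4 and 4, and BBR+OA against OA none, where 1 had an unadjusted p under 0.05 and DESeq2 called 0. With 1 library left out, 5 genes were called in OA against control and 6 to 7 in BBR+OA against BBR. DESeq2 called 4 and 6 there. Hmox1, which breaks heme down, rose with BBR from 208.0 ± 31.0 to 407.3 ± 47.8 CPM (n = 3, ± SD, log2 change 0.98 with SE 0.091, edgeR adjusted p = 9.92e-07), with an interaction of -1.15. It also rose with OA (log2 change 0.48 with SE 0.12, edgeR adjusted p = 0.00596), a call lost by DESeq2 (adjusted p = 0.0574). In BBR+OA against BBR Hmox1 fell (-0.68). Alas1, the rate-limiting enzyme of heme synthesis, rose with BBR (0.51) and fell in BBR+OA against BBR (-0.44). Cyb5r3 (-0.23) and Pgrmc1 (-0.18) fell with BBR, the latter not called without control replicate 3 (edgeR adjusted p = 0.0527). Por, the electron donor of microsomal P450 enzymes, rose with OA from 184.2 ± 7.55 to 245.1 ± 6.41 CPM (n = 3, ± SD, log2 change 0.42 with SE 0.049), and Cyb5a rose with OA (0.51) and in BBR+OA against BBR (0.62).

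**Figure D4:**
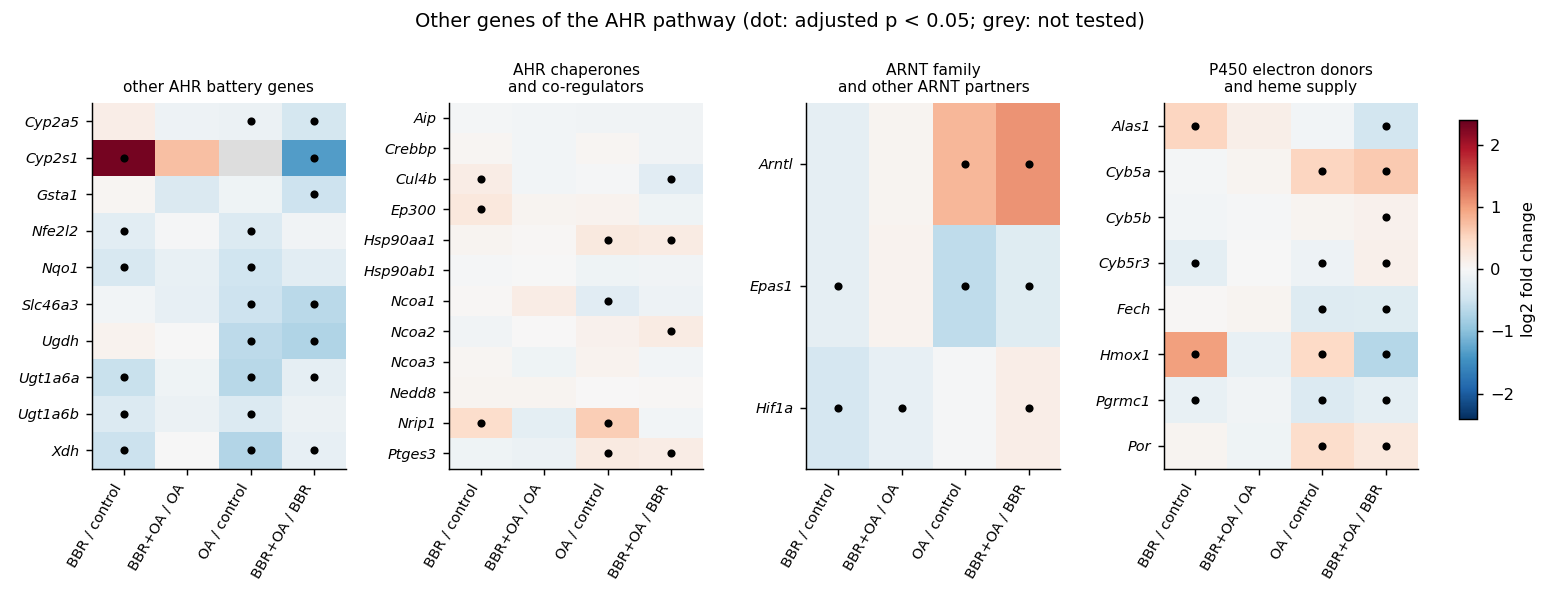
Log2 fold changes of the tested genes of 4 lists around AHR (rows) in 4 comparisons (columns), red for higher and blue for lower in the first group, with a dot at an edgeR adjusted p under 0.05. The column of BBR+OA against OA holds a single dot, at Hif1a (-0.21), and the AHR battery genes with a dot in the OA against control column are all lower.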

How the data were processed

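RNA from 12 libraries of primary mouse hepatocytes, 3 per group by the sample titles, was sequenced after poly(A) enrichment, per the labels. For each library the authors deposited estimated counts, 2862 features of which had fractions and which were rounded here, and FPKM values, used for levels between genes. The build is mm10 in the submitters' processing notes. The aligner, counter and strand setting are not given in the sources used here.

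Counts were kept by filterByExpr (minimum count 10), scaled by TMM and tested by the two-sided quasi-likelihood test of edgeR 4.0.16 (R 4.3.3), each comparison on its 6 libraries and the interaction on all 12, with Benjamini-Hochberg adjustment over all features and intervals of 95% from the fit. The 7 genes and the lists around them were chosen with earlier results of these data known. Of each list, the genes named come from up to 3 called genes per comparison with the largest change and at least 1 CPM. Not every such gene or comparison is given. Nqo1, Ugt1a6b, Ptges3 and Pgrmc1, with Nfe2l2 for BBR, were added after their values were seen. Other called genes are counted without being named. One gene was taken out of the list of AHR targets before counting and is not reported here. Likeness used genes of at least 5 CPM. Of the Ensembl identifiers, 99.7% matched GENCODE M21. The fitting code was run on simulated counts with known changes and the same dispersion for every gene. That is simpler than these data, so it checks the code and not the results. Alternatives were RLE or upper quartile scaling, no filter, DESeq2 1.42.0, a replicate block, all libraries in 1 fit, limma 3.58.1 on log2(FPKM + 0.1) or log2(FPKM + 1), and each library left out. For levels relative to control, raw library totals and FPKM were also used.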

Additional observations from a re-analysis of the deposited data

Results flagged for a closer look

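The effect of BBR differed between cells with and without OA in 2 of the 5 tested genes, by the interaction test of edgeR over all 12 libraries with Benjamini-Hochberg adjustment. For Tiparp the difference was -0.73 on the log2 scale (SE 0.078, adjusted p = 1.77e-05): BBR libraries stood above control libraries in 3 of 3, and BBR+OA libraries below OA libraries in 3 of 3. The second of these changes alone was not called (adjusted p = 0.0551). For Arnt the difference was 0.27 (SE 0.073, adjusted p = 0.0213): BBR libraries stood below control libraries in 3 of 3, while BBR+OA and OA libraries overlapped. Among all features, 12.2% were called in the interaction. The 2 groups did not overlap in 41.5% of features with BBR against control and in 23.9% with BBR+OA against OA.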

How the results depend on the processing

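Of 375 values of the members under alternatives, 331 kept their direction and their side of the threshold, 21 lost a call, 7 gained a call and 16 changed sign; in each of these the cause was not tested. The number of members called in BBR+OA against OA was 0 and became 1 without a filter on low counts, 1 with all 12 libraries in 1 fit (Tiparp in both) and 2 with the replicate number as a block (Ahr and Tiparp); leaving out 1 library gave 0 to 1. Leaving out 1 library gave 3 to 5 members called in OA against control and 1 to 2 in the interaction. Cyp1a2 in BBR+OA against OA turned from -0.00077 to 0.00069 (RLE), 0.0012 (upper quartile), 0.00057 (DESeq2), 0.00015 (block), 0.0024 (all 12 libraries), 0.0073 and 0.0068 (limma on FPKM + 0.1 and + 1) on the log2 scale, and to between -0.073 and 0.062 with 1 library left out. With 1 library left out, Cyp1a2 lay between -0.067 and 0.015 in BBR against control and between -0.045 and 0.077 in the interaction, and Cyp1a1 in BBR+OA against OA between -0.61 and 0.055. Features called in BBR+OA against OA numbered 563, and 1333 with the block, 185 and 174 with limma, and 216 to 632 with 1 library left out (lowest without BBR+OA replicate 3). In the interaction they numbered 1551, and 1027 to 1679 with 1 library left out (lowest without OA replicate 2). Same-numbered libraries correlated in their deviations by 0.023 to 0.16 over the 4 pairwise comparisons. The numbers were not taken as pairs because not every pair was above 0.1, a cut chosen here. In 11 of 12 cases, however, a library correlated best with its own number. The labels do not say whether a number marks a shared culture or batch, so a pairing may have been left out. The absence of called members in BBR+OA against OA depends on this choice. With the block, Ahr (edgeR adjusted p = 0.0428) and Tiparp (0.0197) were called there, and no other call of a member changed. Scaling moved the median log2 fold change of all features by at most 0.046 (OA against control, upper quartile). Called genes of the AHR battery list ranged from 5 to 7 (BBR against control), 6 to 9 (OA against control), 4 to 8 (BBR+OA against BBR), 0 to 1 (BBR+OA against OA) and 1 to 5 (interaction, lowest without BBR+OA replicate 3 and highest with the block) over the alternatives. In BBR+OA against OA, 1 chaperone or co-regulator gene was called without OA replicate 3 and 1 gene of heme and electron supply without OA replicate 1. Depth limited Ahrr and Cyp1b1, which could not be tested, and Cyp1a1, whose 7 to 37 reads per library left wide intervals. On the log2(FPKM + 1) scale, which compresses low genes, Cyp1a1 fell by 0.34 with OA and by 0.26 with BBR.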

Other observations

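Cyp1a2 is a gene of hepatocytes near the central vein, and genes that mark positions along the liver lobule were read in the same libraries from lists of 10 pericentral and 10 periportal genes. Of 7 pericentral genes tested, edgeR called 1 higher and 1 lower with BBR against control, 1 lower with OA against control, and 3 lower in BBR+OA against BBR, where 27.7%, 42.8% and 38.9% of all features were called. The count with BBR was 1 without BBR replicate 1 or 2, and that with OA was 2 without control replicate 2 or 3 and 3 without OA replicate 1. Glul, the glutamine synthetase gene of the innermost hepatocytes, fell with OA from 188.1 ± 12.4 to 103.3 ± 7.75 CPM (n = 3, ± SD, log2 change -0.86 with SE 0.064, adjusted p = 1.32e-07) and with BBR by 0.42 on the log2 scale. Cyp2e1, an ethanol-oxidising P450 gene, rose with BBR (log2 change 0.28 with SE 0.082, adjusted p = 0.0192) and fell in BBR+OA against BBR (-0.49, SE 0.11, adjusted p = 0.00206). The rise of Cyp2e1 with BBR was not called by DESeq2 (adjusted p = 0.155), nor by edgeR without control replicate 2 or 3 (adjusted p = 0.0905 and 0.109) or without BBR replicate 1 or 2 (adjusted p = 0.0685 and 0.0633).

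Of 10 periportal genes, all tested, 2 were higher and 4 lower with BBR against control, and 5 were higher and 1 lower both with OA against control and with BBR+OA against BBR. With BBR the 6 called genes became 3 without BBR replicate 2 and 4 to 5 without any other library. The 2 that were higher with BBR were Arg1 (log2 change 0.39) and Gls2 (0.37). Cps1, the first enzyme of the urea cycle, rose with OA from 17.9 ± 1.49 to 177.5 ± 20.4 CPM (n = 3, ± SD, log2 change 3.32 with SE 0.085, adjusted p = 2.36e-12) and fell with BBR to 9.70 ± 2.20 CPM (log2 change -0.86 with SE 0.12, adjusted p = 6.60e-05). Hsd17b13, a lipid droplet protein gene, and Pck1, a gluconeogenic enzyme gene, rose with OA by log2 fold changes of 0.97 (SE 0.083) and 1.09 (SE 0.29). With BBR+OA against OA no gene of either list was called by edgeR or by DESeq2, and 0 had an unadjusted p under 0.05.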
